A study of Mus musculus with 6 samples.

Results

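Of the 26329 genes in the deposited table, 38 were translation initiation factors outside the cap-binding complex eIF4F, chosen as every gene whose symbol starts with Eif1, Eif2, Eif3, Eif5 or Eif6. They comprised 5 genes of the eIF1 group, 3 subunits of eIF2, 5 of eIF2B, 4 eIF2-alpha kinases, 2 factors that can bring initiator tRNA to the ribosome without eIF2, 14 genes for eIF3 subunits, 4 of the eIF5 group and eIF6. RNA sequencing was done on ovaries of mice kept in culture, with 3 Control libraries that received the solvent DMSO and 3 libraries that received ISRIB dissolved in DMSO. The labels give no dose, length of culture, strain or age for the cultured ovaries. They also do not say whether replicates came from separate animals, so the p-values reflect library-to-library spread that could be technical. The study concerns inhibition of the integrated stress response (ISR), activation of primordial follicles and mTOR signalling.

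A ribosome starts on a messenger RNA when eIF2, loaded with GTP, delivers the initiator methionyl tRNA to the small subunit. After each round eIF2 is left with GDP, and eIF2B exchanges it for GTP. In the ISR, stress-sensing kinases phosphorylate the alpha subunit of eIF2, which then holds on to eIF2B and slows protein synthesis. ISRIB is a small molecule that binds eIF2B and restores its activity against phosphorylated eIF2. The drug acts on proteins, and the values below are levels of the messenger RNAs for them, in FPKM, which corrects fragment numbers for gene length and library size.

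The libraries held 34474821 to 38002135 reads, worked back as whole numbers from the FPKM. Each initiation factor had between 780 and 18236 reads in every library, and together they took 0.552% to 0.590% of all reads. The labelled tissue was checked by marker genes. All 8 oocyte markers were present, with a summed level of 687 to 769 FPKM in Control and 762 to 839 in ISRIB, and so were all 5 granulosa markers, at 360 to 485 and 440 to 563 FPKM. The 5 endothelial markers summed to 108 to 117 FPKM in Control and 88.3 to 99.6 in ISRIB, without overlap. ISRIB replicate 1 stood apart in red cell genes, with 325 FPKM against 40.1 to 75.5 in the other 5 libraries. The part of these cell type differences in the values below was not tested, and in whole tissue fewer cells of a type and less RNA per cell cannot be told apart.

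Transcript levels of the initiation factors differed little between ISRIB and Control. On the log2(FPKM + 0.5) scale, 37 of the 38 differences were smaller than 0.15, the exception being Eif5a2, and the 95% interval lay within 0.3 in either direction for 36. None passed the test: 0 of 38 had an adjusted p under 0.05 in limma, as did 0 of the 12922 genes tested (0.0%), which were those averaging 1 FPKM or more, and the smallest adjusted p among the factors was 0.185. In limma's voom on the recovered reads 0 of 38 passed as well, against 0.929% of all genes tested. At an unadjusted p under 0.05 there were 6 factors higher in ISRIB (15.8% of the 38, against 8.71% of all genes, and 16.4% in either direction), namely Eif1, Eif1b, Eif3e, Eif3h, Eif3k and Eif3m. In the other direction there was 1, Eif5a2 (2.63%, against 7.73%). That split depended on scaling: after each library was rescaled to the same FPKM sum (TPM rescaling), 0 were higher (against 4.68% of all genes) and 4 lower (10.5%, against 14.9%), which were Eif2s3x, Eif3c, Eif5a2 and Eif5b. All 3 ISRIB libraries lay above all 3 Control libraries for 8 factors (21.1%, against 10.8% of all genes) and below for 2 (5.26%, against 12.0%, and 22.8% either way). The median difference of the 38 was 0.03 and that of all genes tested 0.01, and after TPM rescaling these were −0.02 and −0.04.

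**Figure D1:**
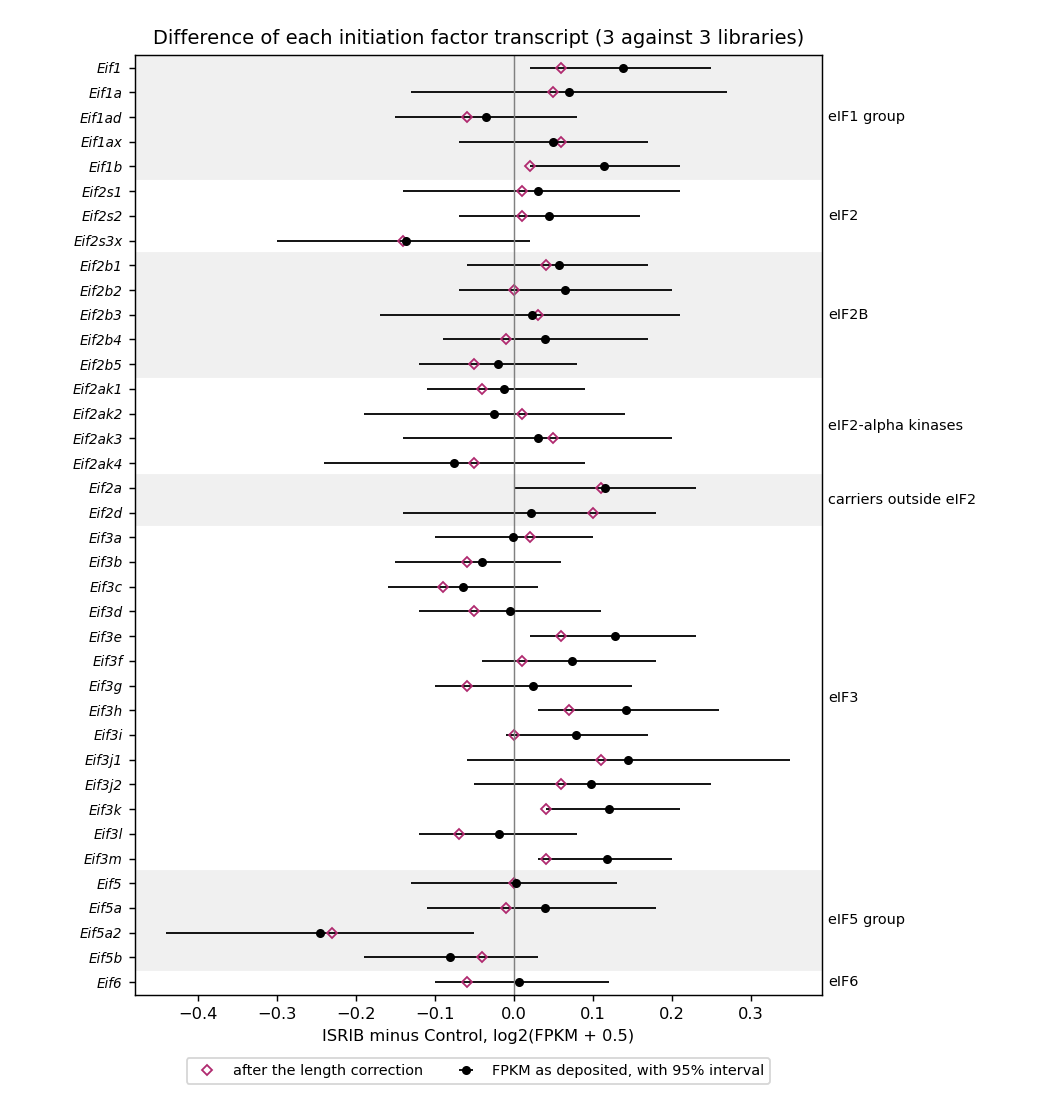
Difference between ISRIB and Control for each of the 38 initiation factor transcripts on the log2(FPKM + 0.5) scale, grouped by complex. Black points with bars are limma estimates with 95% intervals from 3 against 3 libraries, and open diamonds are the same differences after a correction for gene length; most points lie within 0.15 of 0, Eif5a2 lies lowest, and the diamonds of the 6 factors with an unadjusted p under 0.05 on the higher side lie nearer to 0.

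The 3 subunits of eIF2 showed no difference that passed the test. Eif2s1, which codes for the alpha subunit that the ISR kinases phosphorylate (chromosome 12, 78861819 to 78887010, plus strand, GRCm38), measured 28.8, 30.1 and 30.9 FPKM in Control replicates 1 to 3 and 34.5, 29.3 and 28.2 FPKM in ISRIB. ISRIB replicate 1 was the highest library and ISRIB replicate 3 the lowest, so the groups overlapped. The log2 difference was 0.03 (95% interval −0.14 to 0.21, limma adjusted p = 0.870), and −0.06 without ISRIB replicate 1. Eif2s2, the beta subunit, had the highest level of the complex, with 65.5, 72.5 and 71.8 FPKM in Control and 73.3, 72.2 and 70.5 in ISRIB. Its mean FPKM over all libraries was 2.34 times that of Eif2s1 and 1.94 times that of Eif2s3x. The X-linked gamma subunit Eif2s3x, which binds the GTP and the tRNA, had 36.7, 37.9 and 40.4 FPKM in Control and 38.0, 34.7 and 31.9 in ISRIB. The groups overlapped through ISRIB replicate 1, and the difference was −0.14 (95% interval −0.30 to 0.02, adjusted p = 0.368). Leaving out single libraries gave −0.20 (without ISRIB replicate 1, limma adjusted p = 0.164) to −0.08 (without ISRIB replicate 3, adjusted p = 0.650). The Y-linked copy Eif2s3y was absent from the deposited values.

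The transcripts of eIF2B, the complex that ISRIB binds, were measured at unequal levels and overlapped between the groups for all 5 subunits. Eif2b5, the catalytic epsilon subunit (chromosome 16, 20498817 to 20509323, plus strand), had 30.9, 31.7 and 30.3 FPKM in Control and 31.0, 30.7 and 29.8 in ISRIB, a log2 difference of −0.02 (95% interval −0.12 to 0.08, limma adjusted p = 0.845). Eif2b2, the beta subunit, had the highest mean of the 5, averaging 34.4 ± 1.86 FPKM in Control libraries and 36.0 ± 1.75 FPKM in ISRIB libraries (SD, n = 3, as below). The gamma subunit Eif2b3, partner of the epsilon subunit in the catalytic part, was the lowest, with 6.53 ± 0.345 and 6.65 ± 0.642 FPKM, and the mean of Eif2b2 over all libraries was 5.34 times higher. Between them, Eif2b1, the alpha subunit, had 14.9 ± 0.268 and 15.5 ± 0.635 FPKM. Eif2b4, the delta subunit, had 18.6 ± 0.662 and 19.1 ± 1.05 FPKM. ISRIB binds where the beta and delta subunits meet. The log2 differences of these 4 were 0.02 to 0.07, and 0.598 was the smallest adjusted p of the complex. The order of levels was Eif2b2, Eif2b5, Eif2b4, Eif2b1 and Eif2b3, and the ranges over the 6 libraries did not overlap between any of these neighbours. That order depends on the gene lengths implied by the FPKM and reads. They were 2974 bases for Eif2b1 and 2127 for Eif2b4, where the longest GENCODE M21 transcripts have 2013 and 2025 bases.

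**Figure D2:**
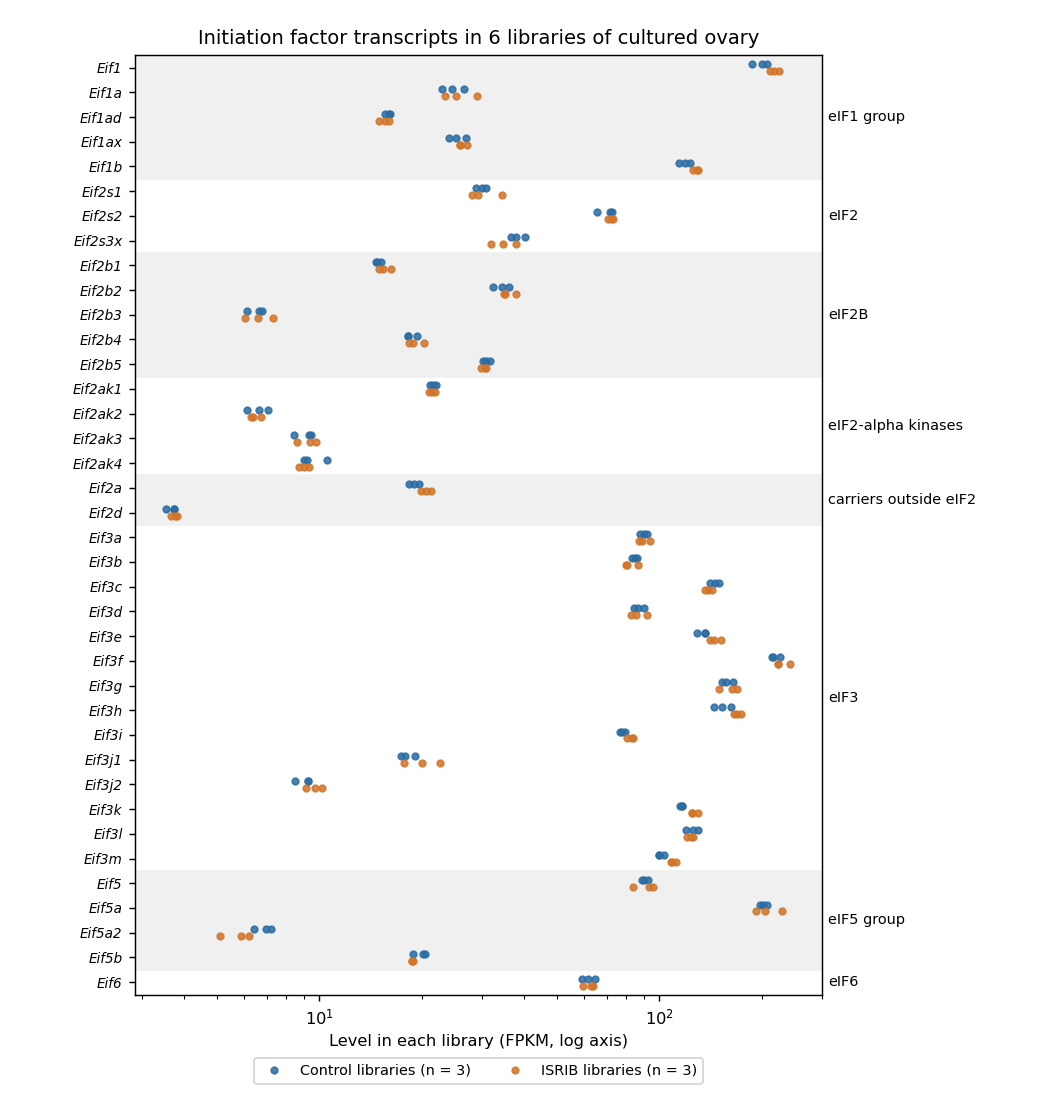
Level of the 38 initiation factor transcripts in each library, in FPKM on a log axis, grouped by complex, with Control libraries in blue and ISRIB libraries in orange. Levels run from 3.71 FPKM on average for Eif2d to 224 for Eif3f, and the spread between subunits of a complex is far wider than the distance between the groups. Levels of different genes depend on the gene lengths used for the FPKM.

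The eIF2-alpha kinases each sense another stress, and all 4 overlapped between the groups. Eif2ak1, the kinase HRI that senses lack of heme and mitochondrial stress, was the most abundant, at 21.6 ± 0.424 FPKM under DMSO and 21.4 ± 0.446 under ISRIB. Eif2ak4, the amino acid sensor GCN2, had 10.5, 9.17 and 9.04 FPKM in Control and 8.74, 9.34 and 9.04 in ISRIB, where Control replicate 1 was the single high library. Eif2ak3, the endoplasmic reticulum kinase PERK, had 9.06 ± 0.573 and 9.27 ± 0.623 FPKM. Eif2ak2, the kinase PKR that double-stranded RNA activates, was lowest at 6.61 ± 0.460 and 6.48 ± 0.227 FPKM. The largest difference among the kinases was that of Eif2ak4, at −0.08 (95% interval −0.24 to 0.09, limma adjusted p = 0.630). The levels of Eif2ak3 and Eif2ak4 did not differ beyond their spread, while Eif2ak1 stood at 3.28 times the mean of Eif2ak2. The implied gene lengths were 2838 bases for Eif2ak1 and 6713 for Eif2ak2, where the longest GENCODE M21 transcripts have 4325 and 4313 bases. That ratio and the order of the kinases therefore depend on the gene model.

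Outside eIF2, Eif2a, which codes for a factor that can bring initiator tRNA without GTP (chromosome 3, 58525821 to 58557501, plus strand), had 19.0, 19.6 and 18.3 FPKM in Control and 19.9, 21.3 and 20.6 in ISRIB. All ISRIB libraries lay above all Control libraries, with a log2 difference of 0.11 (SE 0.05, limma adjusted p = 0.305) that was 0.11 after the length correction and 0.06 after TPM rescaling. Eif2d, known for initiation at some unusual start sites and for recycling of ribosomes, had 3.68 ± 0.108 and 3.74 ± 0.0840 FPKM, a difference of 0.02. Its FPKM was divided by an implied gene length of 14736 bases, where its longest GENCODE M21 transcript has 3465 bases, so its level next to other genes depends on the gene model.

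eIF3 is the largest initiation factor and holds the small ribosomal subunit ready for the messenger RNA. Its 12 subunit genes other than the j subunits had mean levels of 80.1 FPKM (Eif3i) to 224 FPKM (Eif3f), a range of 2.8 times. The summed level of all 14 genes was 1493, 1531 and 1535 FPKM in Control and 1593, 1569 and 1570 in ISRIB. The FPKM of all genes together were also higher in every ISRIB library, and as a share of that total the eIF3 sums overlapped, with 0.448%, 0.456% and 0.452% in Control against 0.458%, 0.451% and 0.448% in ISRIB. The differences were not even over the subunits. Eif3k belongs to the structural core of the complex, and its gene is on chromosome 7, 28971372 to 28981864, minus strand. It measured 115, 117 and 117 FPKM in Control and 125, 125 and 130 in ISRIB, a log2 difference of 0.12 (SE 0.0369, limma adjusted p = 0.185). Eif3m belongs to the same core, with its gene on chromosome 2, 104999656 to 105017080, minus strand. It measured 100, 100 and 103 FPKM in Control and 112, 109 and 108 in ISRIB (0.12, SE 0.0371, adjusted p = 0.193). In both genes the Control libraries lay close together and every ISRIB library lay above them. Eif3h, also of the core, had 153, 145 and 163 FPKM in Control and 169, 174 and 166 in ISRIB (0.14, SE 0.0497, adjusted p = 0.225), and its groups did not overlap. Eif3e, a core subunit also known as Int6, had 129, 136 and 136 FPKM in Control and 141, 145 and 152 in ISRIB (0.13, SE 0.0450, adjusted p = 0.228).

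Other eIF3 subunits, except the j subunit gene Eif3j1, showed smaller or opposite differences. Eif3c, a large subunit of the core together with Eif3a, had 146, 150 and 141 FPKM in Control and 143, 139 and 136 in ISRIB, with overlap between the groups (−0.06, SE 0.0408, limma adjusted p = 0.472). Eif3b, which forms a peripheral module with Eif3g and Eif3i, had 84.7 ± 1.48 and 82.3 ± 3.87 FPKM (−0.04), and the core subunit Eif3l had 125 ± 5.16 and 124 ± 2.31 FPKM (−0.02). Eif3f, the most abundant, had 214, 226 and 216 FPKM in Control and 224, 223 and 243 in ISRIB, a difference of 0.07 that was −0.02 after quantile normalization. The remaining genes, Eif3a of the core and Eif3d, Eif3g and Eif3i outside it, had differences of −0.00 to 0.08, and only Eif3i among them had groups that did not overlap. The loosely bound j subunit has 2 mouse genes, with 18.1 ± 0.855 and 20.2 ± 2.49 FPKM for Eif3j1 and 9.0 ± 0.444 and 9.67 ± 0.528 for Eif3j2. Eif3j1 had the largest log2 difference of the 14 eIF3 genes, at 0.145 (SE 0.087, limma adjusted p = 0.445). That of Eif3j2 was 0.098 (SE 0.0651, limma adjusted p = 0.486), and both genes overlapped between the groups. Their annotated coding sequences are identical over a run of 781 of 783 aligned bases (99.7% in all), so reads of the coding part cannot be assigned to 1 of them with certainty. The untranslated parts were not compared. The median difference of the 14 eIF3 genes was 0.08, and it was 0.01 after the length correction and 0.02 after TPM rescaling.

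**Figure D3:**
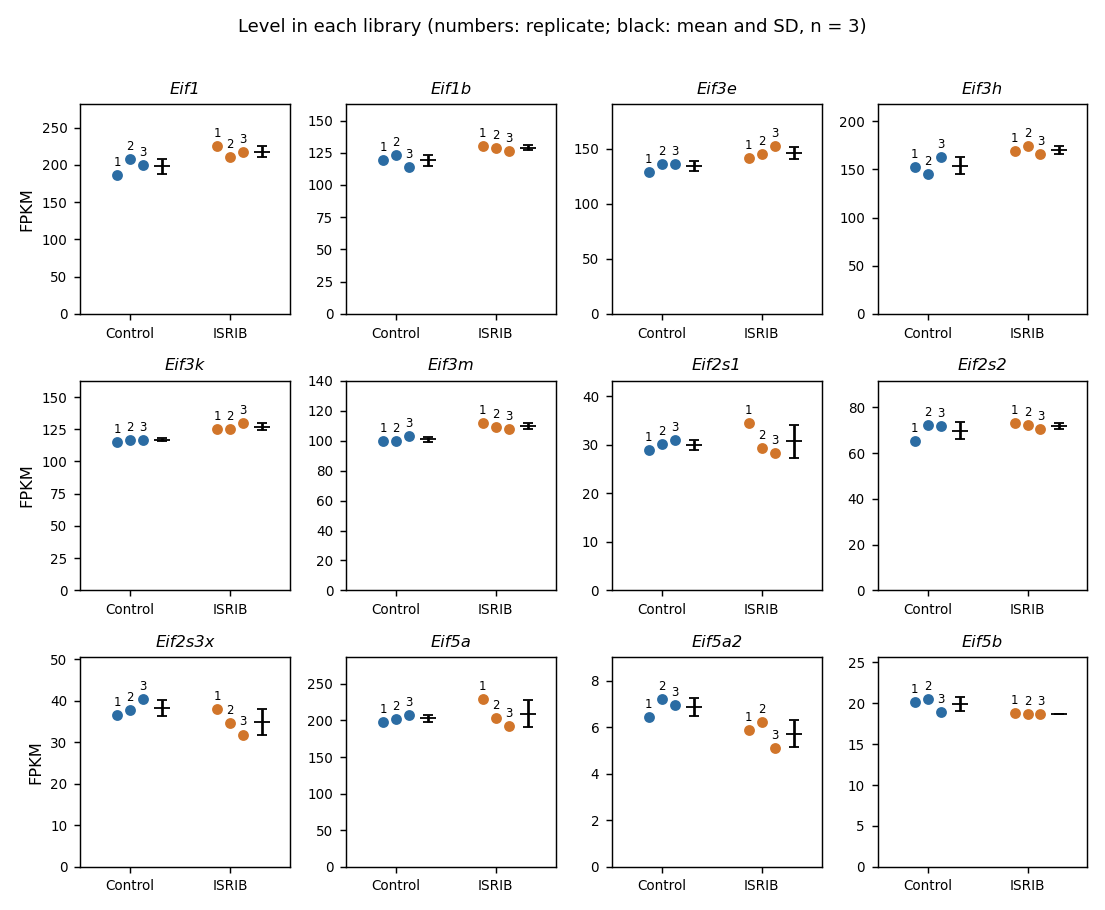
FPKM in each library for 12 initiation factor genes, with replicate numbers beside the points and the mean and SD (n = 3) in black; axes start at 0. In the 6 genes Eif1, Eif1b, Eif3e, Eif3h, Eif3k and Eif3m every ISRIB library lies above every Control library, in Eif5a2 and Eif5b every ISRIB library lies below, and in Eif2s1, Eif2s2, Eif2s3x and Eif5a the groups overlap, with ISRIB replicate 1 the highest of its group.

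Eif1 and its paralog Eif1b code for the small factor that keeps the scanning ribosome from starting at a wrong codon. Eif1 (chromosome 11, 100319885 to 100322096, plus strand) had 187, 208 and 200 FPKM in Control and 225, 211 and 217 in ISRIB, a log2 difference of 0.14 (SE 0.0502, limma adjusted p = 0.239). Eif1b (chromosome 9, 120492232 to 120495330, plus strand) had 119, 123 and 114 FPKM in Control and 130, 129 and 126 in ISRIB (0.11, SE 0.0421, adjusted p = 0.242). Neither overlapped between the groups. The first 60 coding bases of both are shown to tell how far reads of the pair can be told apart, with the 5 differing bases in capitals (GENCODE M21 transcripts).
Eif1: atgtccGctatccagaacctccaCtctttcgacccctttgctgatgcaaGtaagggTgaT
Eif1b: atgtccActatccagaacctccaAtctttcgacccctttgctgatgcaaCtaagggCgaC
Over the whole coding sequence the pair was identical at 81.1% of 339 bases, and the longest identical run was 25 bases. The other genes of the group overlapped between the groups. Eif1a and Eif1ax, which code for the tRNA-stabilizing partner eIF1A, had differences of 0.07 and 0.05. Eif1ad, whose human protein acts in maturation of the small ribosomal subunit, had a difference of −0.04.

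The eIF5 group joins unlike proteins. Eif5a2 (chromosome 3, 28781276 to 28798846, plus strand) is the minor paralog of Eif5a, whose protein carries the amino acid hypusine and helps ribosomes through difficult stretches. Eif5a2 had 6.44, 7.21 and 6.97 FPKM in Control and 5.87, 6.23 and 5.10 in ISRIB, from 926 to 1392 reads in a library. All ISRIB libraries lay below all Control libraries, and its log2 difference of −0.25 was the largest of the 38 in size (SE 0.0853, 95% interval −0.44 to −0.05, limma adjusted p = 0.223, and 0.132 to 0.480 over the alternatives tried). It was −0.23 after the length correction, −0.29 after TPM rescaling and −0.30 to −0.17 when single libraries were left out. Eif5a itself had a mean 32.6 times higher, with 198, 202 and 208 FPKM in Control and 229, 204 and 193 in ISRIB. There ISRIB replicate 1 was the highest and ISRIB replicate 3 the lowest of all libraries, and the difference was 0.04 (95% interval −0.11 to 0.18). The start of both coding sequences is shown because the pair differs enough for most reads to be assigned, with the 17 differing bases of the first 60 in capitals (GENCODE M21).
Eif5a: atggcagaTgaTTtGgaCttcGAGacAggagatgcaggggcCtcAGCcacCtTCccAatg
Eif5a2: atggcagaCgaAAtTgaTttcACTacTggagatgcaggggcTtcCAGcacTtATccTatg
The coding sequences were identical at 73.2% of 459 aligned bases, with no identical run over 14 bases.

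Eif5b, the GTPase that joins the large subunit, had 20.2, 20.5 and 18.9 FPKM in Control and 18.8, 18.7 and 18.7 in ISRIB. The ISRIB libraries lay close together just under the lowest Control library, with a log2 difference of −0.08 (SE 0.0486, limma adjusted p = 0.443). Eif5, the factor that makes eIF2 hydrolyse its GTP at the start codon, had 90.6 ± 1.97 and 90.9 ± 6.52 FPKM (0.00, 95% interval −0.13 to 0.13). Eif6, which keeps free large subunits from joining too early, had 61.9 ± 2.73 and 62.2 ± 2.14 FPKM (0.01, 95% interval −0.10 to 0.12).

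The differences went with gene length. Across the 38 factors the Spearman rho between log2 difference and implied gene length was −0.59, and across all 12922 genes it was −0.361; genes share libraries and are not independent replicates. The 6 factors higher at an unadjusted p under 0.05 had implied lengths of 928 (Eif1b) to 1560 bases (Eif3e), and Eif5a2 had 5087 bases. These lengths depend on the gene model. The longest GENCODE M21 transcripts have 1035 bases for Eif1b, 4123 for Eif3e and 5027 for Eif5a2. With a limit of 1600 bases, chosen after seeing the data, the 10 shorter factors all had differences above 0, with a median of 0.12, where all 2035 genes tested up to that length had a median of 0.08. Among these 10, Eif3g and Eif6 were below 0 after TPM rescaling, at −0.03 and −0.04, and Eif3f, Eif3g and Eif6 after quantile normalization. The 28 longer factors had a median of 0.01, with 15 above 0. Of the genes tested up to 1600 bases, 22.4% were higher in ISRIB at an unadjusted p under 0.05. Of the 10 shorter factors 6 were, a larger share, but the limit lies just above the longest of these 6. After the trend with length was removed from each library, no factor was higher at an unadjusted p under 0.05 in limma (0 of 38, against 6.06% of all genes). On the lower side there was Eif5a2 (against 7.27%), with a limma adjusted p of 0.320. The 6 shorter factors then had differences of 0.02 (Eif1b) to 0.07 (Eif3h).

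**Figure D4:**
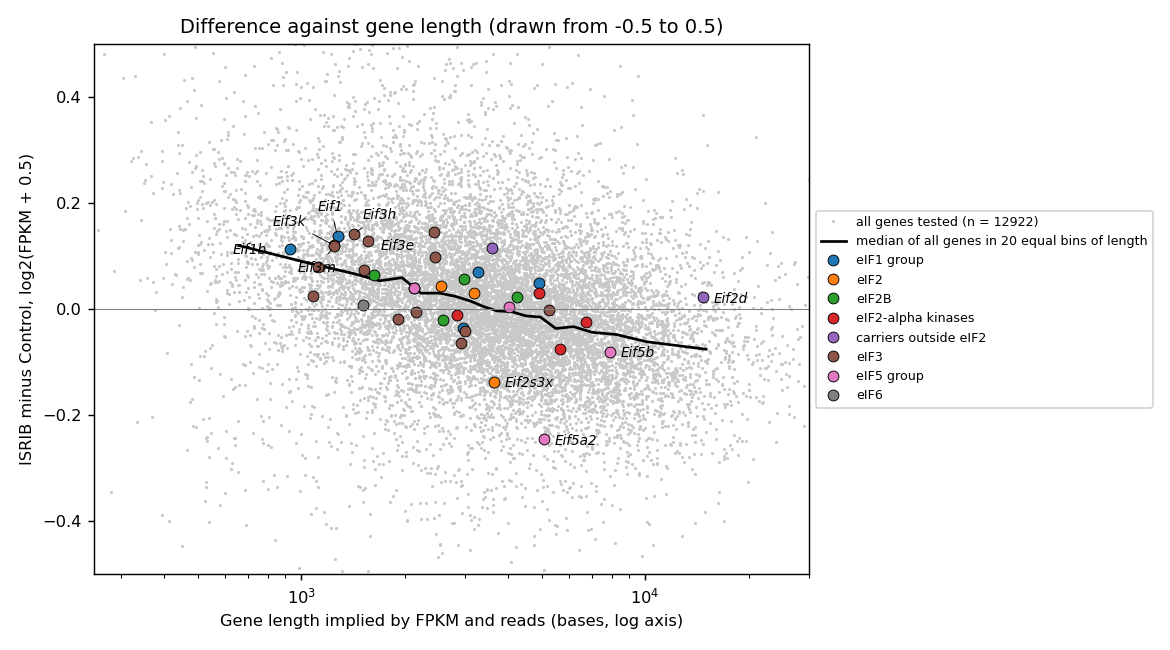
Log2 difference between ISRIB and Control against the gene length implied by FPKM and reads, on a log axis, for all 12922 genes tested (grey) and the 38 initiation factors (coloured by complex); the black line joins medians of all genes in 20 bins of length. The line goes down with length, the short factors Eif1, Eif1b, Eif3e, Eif3h, Eif3k and Eif3m lie at or a little above it, and Eif5a2 and Eif2s3x lie below it.

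Within the groups, the libraries with the highest and lowest levels were often the same ones. ISRIB replicate 1 had the highest level of its group for 24 of the 38 factors and ISRIB replicate 3 the lowest for 24, and in Control replicate 2 was highest for 22 and replicate 1 lowest for 21. These are 63.2%, 63.2%, 57.9% and 55.3% of the factors, where the same libraries held those ranks for 33.0%, 37.5%, 32.4% and 34.0% of all genes tested, and this difference was not tested. The coefficient of variation between replicates had a median of 3.71% in Control and 3.64% in ISRIB. It reached 8.49% for Eif2ak4 in Control and 12.3% for Eif3j1 in ISRIB. Without ISRIB replicate 1, 5 factors were higher at an unadjusted p under 0.05 (Eif2a, Eif3e, Eif3h, Eif3k and Eif3m; 13.2%, against 10.6% of all genes in that fit) and 2 lower (Eif2s3x and Eif5a2; 5.26%, against 8.24%).

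Promoter sequences are shown for Eif3k and Eif3m, which had the smallest p on the higher side, and for Eif5a2 on the lower side. They are the 250 bases before the annotated start (RefSeq, GRCm38.p6), written 5′ to 3′ on the gene's strand, with matches to the searched motifs in capitals. In GENCODE M21 the gene Eif3m starts at 105017080, inside the window shown for it, and its marked match lies across that start.
Eif3k, chr7:28981889-28982138, minus strand: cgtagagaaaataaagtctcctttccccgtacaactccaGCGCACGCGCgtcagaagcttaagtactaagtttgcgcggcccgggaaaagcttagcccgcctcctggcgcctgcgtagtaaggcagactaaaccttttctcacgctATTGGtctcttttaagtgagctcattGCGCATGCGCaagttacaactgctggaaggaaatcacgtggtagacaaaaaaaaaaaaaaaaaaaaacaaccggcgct
Eif3m, chr2:105017028-105017277, minus strand: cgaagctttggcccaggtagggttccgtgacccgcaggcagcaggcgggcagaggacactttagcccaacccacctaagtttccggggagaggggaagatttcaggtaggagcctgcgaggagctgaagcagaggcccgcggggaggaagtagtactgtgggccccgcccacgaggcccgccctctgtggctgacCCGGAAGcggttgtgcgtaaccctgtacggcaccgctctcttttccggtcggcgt
Eif5a2, chr3:28781027-28781276, plus strand: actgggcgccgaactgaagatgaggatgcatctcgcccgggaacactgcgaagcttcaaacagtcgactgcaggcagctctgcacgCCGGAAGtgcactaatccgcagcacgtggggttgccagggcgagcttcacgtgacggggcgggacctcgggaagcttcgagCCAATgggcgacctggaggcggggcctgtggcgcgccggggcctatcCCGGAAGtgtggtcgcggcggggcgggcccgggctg
The table has no entry for Eif1a, Eif2b3, Eif3e, Eif3h, Eif3i, Eif3j2 and Eif6. Searched on both strands, these were the ETS motif CCGGAAG, the NRF1 motif (GCGC, any base, then TGCGC), the CCAAT box CCAAT, the TATA box TATAAA, the YY1 motif AAGATGGCG and TGATGNAA, the core of the composite element that the ISR factor ATF4 binds, and no base of the promoters shown lay in matches to more than 1 of them. In windows from 250 bases before to 50 after the start, the ETS motif stood in 13 of the 31 factors with an entry (41.9%), against 19.9% of 10342 tested genes and 8.86% of all 32851 promoters. The ETS motif was found both in Eif3m and in Eif5a2. Their differences of 0.12 and −0.25 did not pass the test, and a link between motif and difference was not tested. The NRF1 motif stood in 6 factors (19.4%, against 11.4% of tested genes and 4.6% of all promoters) and the CCAAT box in 12 (38.7%, against 42.9% and 37.4%). The TATA box stood in 3 (9.68%, against 8.52% and 13.6%). TGATGNAA stood in 1, Eif2s3x (3.23%, against 2.65% and 3.97%), and the YY1 motif in 0 (against 3.5% and 1.4%).

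Messenger RNAs whose first bases are a C and a run of pyrimidines are translated under control of mTOR. At the RefSeq start, a first C with an unbroken run of at least 5 C or T stood in 2 of the 37 windows of the 31 factors with an entry (several have more than 1 annotated start) and in 2.51% of all promoters. They are shown from 15 bases before to 15 after the start, with the run of 11 bases in capitals.
Eif3f, chr7:108934400-108934429, plus strand: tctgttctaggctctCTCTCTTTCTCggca
Eif2s3x, chrX:94212637-94212666, minus strand: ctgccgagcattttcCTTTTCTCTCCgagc
In these libraries the first had a difference of 0.07 and the second of −0.14, and translation was not measured. The share of tested genes with such a run was not counted. In GENCODE M21 the gene Eif2s3x starts at 94212862, outside the window shown, so its run depends on the annotated start.

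Other genes that act on these factors were described from a list of 27 tested genes. None passed (0 in limma, with 2 higher and 2 lower at an unadjusted p under 0.05, against 8.71% and 7.73% of all genes), and the median difference was 0.03. The groups did not overlap for 5 higher and 3 lower genes of the 27, where 10.8% and 12.0% of all genes did not. Those with the smallest p follow. Gcn1, the ribosome-bound activator of the kinase GCN2, had 21.7, 22.2 and 22.4 FPKM in Control and 19.8, 19.2 and 19.5 in ISRIB, without overlap (−0.17, SE 0.0433, limma adjusted p = 0.126, and −0.12 after the length correction). Sbds, which helps to release eIF6 from the large subunit, had 24.9, 28.7 and 25.9 FPKM in Control and 33.6, 29.4 and 31.4 in ISRIB, also without overlap (0.24, SE 0.0696, adjusted p = 0.163, and 0.18 after the length correction). Mcts1, which acts in recycling and reinitiation, had 9.34 to 10.6 FPKM in the Control libraries and 11.2 to 11.5 in the ISRIB libraries, without overlap (0.17, SE 0.0615, limma adjusted p = 0.239, and 0.11 after the length correction). The remaining gene with an unadjusted p under 0.05, named after its values were seen, was Dhps, the first enzyme of hypusine synthesis. Its level was 13.9 ± 1.62 FPKM in Control and 12.0 ± 0.206 in ISRIB, with overlap (−0.20, limma adjusted p = 0.289).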

How the data were processed

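The authors deposited FPKM for 26329 genes, 1 column per library; per the submitters' processing notes fastp, HISAT2, HTSeq, R 3.2.0, DESeq2 and mm10 were used, with no roles given. No source used here gives the annotation, strand setting or FPKM denominator, and reads of overlapping or antisense genes may be mixed. Ratios and orders of level between different genes depend on that denominator. Whole reads were worked back from the FPKM (100.0% of genes whole in every library, tolerance 0.01 read), which also gave an implied gene length. limma 3.58.1 in R 4.3.3 was run on log2(FPKM + 0.5) of 12922 genes averaging 1 FPKM or more; the two-sided test used an intensity trend, and p-values were adjusted over these genes by the Benjamini-Hochberg method; folds of low genes are understated on this scale. Other scalings, filters, pseudocounts, a replicate block, voom and leaving out each library were tried. The length correction removed a loess trend (span 0.5) from each library. Positions and coding sequences came from GENCODE M21 (GRCm38, the build of mm10), matched by symbol, and aligned with Biopython 1.88. The members and lists were chosen with earlier results of these data known. By rule, all genes outside eIF3 except Eif2a and Eif2d were named. Of eIF3, the rule named the 3 of lowest p on either side and the highest and lowest by level. Other eIF3 genes and the promoters were chosen after their values were seen, and Eif2a and Eif2d were added outside the rule. Python 3.11.15, pandas 2.3.3 and matplotlib 3.10.9 made tables and figures.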

Additional observations from a re-analysis of the deposited data

How the results depend on the processing

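No initiation factor had a limma adjusted p under 0.05 under any of the 18 alternatives, where the smallest was 0.132. Over all genes the count of 0 became 8 with a mean FPKM of at least 5, 19 after TPM rescaling, 11 with a replicate block and 120 in voom. Same-numbered Control and ISRIB libraries, as deviations from their group means, correlated at −0.19, −0.091 and 0.192. Differently numbered ones correlated at −0.337 to 0.355, so these values cannot tell whether the numbers pair the samples. Under the replicate block the factors stayed at 6 higher and 1 lower by unadjusted p. The 6 higher became 0 after TPM rescaling, 0 after quantile normalization, 0 after the length correction, 3 without the intensity trend, 7 with median-of-ratios scaling (Eif2a added), 8 with no filter (Eif2a and Eif3i added) and 3 to 6 without single libraries (3 without Control replicate 1). The 1 lower became 4 after TPM rescaling, 2 after quantile normalization, and 0 to 2 without single libraries (0 without Control replicate 2, Control replicate 3 or ISRIB replicate 3, and 2 without ISRIB replicate 1). The cause was not tested, except that each of the last fits had fewer samples.

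The eIF3 median of 0.08 became 0.02 after TPM rescaling, 0.02 after quantile normalization, 0.01 after the length correction and 0.06 to 0.09 without single libraries. The median of Eif2a and Eif2d became 0.11 with the stricter filter, which dropped Eif2d, and 0.02 after TPM rescaling. Differences near 0 changed sign. After TPM rescaling they were −0.00 for Eif1ax, −0.02 for Eif2ak3, Eif2d and Eif2s1, −0.03 for Eif2b3 and Eif3g, −0.01 for Eif2b4, Eif2s2 and Eif5a, −0.05 for Eif5 and −0.04 for Eif6. After quantile normalization they were −0.02 for Eif3f and Eif6, −0.06 for Eif3g, and −0.04 for Eif5 and Eif5a. After the length correction they were 0.01 for Eif2ak2, 0.02 for Eif3a, −0.01 for Eif2b4 and Eif5a, −0.06 for Eif3g and Eif6, and −0.00 for Eif3i. Without single libraries the ranges that crossed 0 were −0.01 to 0.14 for Eif1a, −0.03 to 0.00 for Eif2ak1, −0.07 to 0.02 for Eif2ak2, −0.02 to 0.08 for Eif2ak3, −0.04 to 0.09 for Eif2b3, −0.00 to 0.07 for Eif2b4, −0.06 to 0.09 for Eif2s1 and −0.00 to 0.07 for Eif2s2. They were −0.03 to 0.02 for Eif3a, −0.05 to 0.03 for Eif3d, −0.01 to 0.07 for Eif3g, −0.05 to 0.01 for Eif3l, −0.04 to 0.06 for Eif5, −0.03 to 0.09 for Eif5a and −0.02 to 0.04 for Eif6. Each factor had at least 780 reads in every library, and replicates differed beyond counting noise, with a chi-square per gene of 8.93 or more.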
